A study of Mus musculus with 12 samples.

Results

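Podocyte marker genes were followed here across the 4 groups of a mouse kidney injury series. The 7 genes were Nphs1, Wt1, Synpo, Podxl, Ptpro, Cdkn1c and Magi2. The rule that takes them goes by name and uses no measured value, although the set was drawn up with earlier results of these data known. Every deposited transcript that maps to them by its Ensembl mouse identifier was added up per gene. This gave 17 of the 25790 deposited transcripts and 7 of the 13465 genes of the series. Bulk RNA sequencing had been run on the renal cortex of mice, and the series asks how the glutathione peroxidase gene Gpx3 of the tubular epithelium bears on renal function after ischemia. WT sham libraries came from mice of wild-type genotype after sham treatment, and CKO sham libraries from mice with Gpx3 knocked out in renal tubular epithelial cells after the same sham treatment. WT IRI and CKO IRI libraries came from mice of those genotypes after bilateral renal ischemia of 30 min and reperfusion of 48 h (ischemia-reperfusion injury). Each group had 3 libraries, named here by the numbers in their labels. The strain, age and sex of the mice, the promoter that drove the deletion and the deleted exons are not in the sources used here. Whether every library stands for its own animal is not stated either, so a p-value here speaks only of how far these libraries scatter, which may be technical.

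Podocytes are the epithelial cells that wrap the outside of the glomerular capillaries. Their interlocking foot processes are joined by the slit diaphragm, a cell junction built around nephrin, and the actin skeleton of the foot processes, their charged surface coat and a small set of transcription factors keep this filter in place. They are a minor cell type of the renal cortex and largely do not divide, and the loss of their differentiated proteins is a known feature of glomerular disease, while ischemia-reperfusion is known above all for damage to the tubule.

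Values are FPKM, fragments scaled by transcript length and by the mapped fragments of the library, so they can be set side by side between genes. The sum over all transcripts lay between 391002 and 422328 FPKM per library. How many reads these rest on is not known. The median SD per gene (log2) was 0.0985 for WT sham, 0.168 for CKO sham, 0.274 for WT IRI and 0.227 for CKO IRI. On the first principal component, with 53.7% of the variance, the sham libraries lay between -38.6 and -25.7, and the injured ones between 2.30 in CKO IRI 15 and 72.5 in WT IRI 13, so WT IRI 13 stood farthest from sham. The targeted gene Gpx3 measured 4476 to 5664 FPKM in the WT sham group and 2501 to 3299 FPKM in the CKO sham group, but 1075 to 3568 FPKM in the libraries labelled WT IRI and 2779 to 3723 FPKM in those labelled CKO IRI. It therefore did not separate the genotype labels after injury, and genotype directions below are written for libraries as labelled. The extraction protocol in the labels speaks of joint capsule while the tissue field says kidney. All 10 listed proximal tubule markers were in the table, summing to 8880 to 10940 FPKM in the sham libraries.

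Levels of the 7 genes are given first, and they do not test the label of the set. In every one of the 12 libraries all 7 genes were above 0, and 6 of them, all but Magi2, reached 1 FPKM. Since every deposited row had a group mean of 0.5 FPKM or more, values above 0 were largely given in advance. In WT sham the order of levels was Podxl at 51.3 ± 4.50 FPKM, Cdkn1c at 19.9 ± 2.77, Nphs1 at 10.5 ± 0.988, Synpo at 5.76 ± 4.75, Ptpro at 4.65 ± 0.308, Wt1 at 4.44 ± 2.46 and Magi2 at 1.77 ± 0.425 (mean ± SD, n = 3). Podxl, Cdkn1c and Nphs1 did not overlap with one another in WT sham, whereas Synpo, Ptpro and Wt1 lay within each other's spread. In WT IRI the libraries of Cdkn1c and Podxl overlapped, at 46.4 ± 30.2 and 31.6 ± 8.10 FPKM. In bulk tissue, fewer podocytes and less RNA of a gene per podocyte cannot be told apart. The panels of FPKM by library show all 7 genes.

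**Figure D1:**
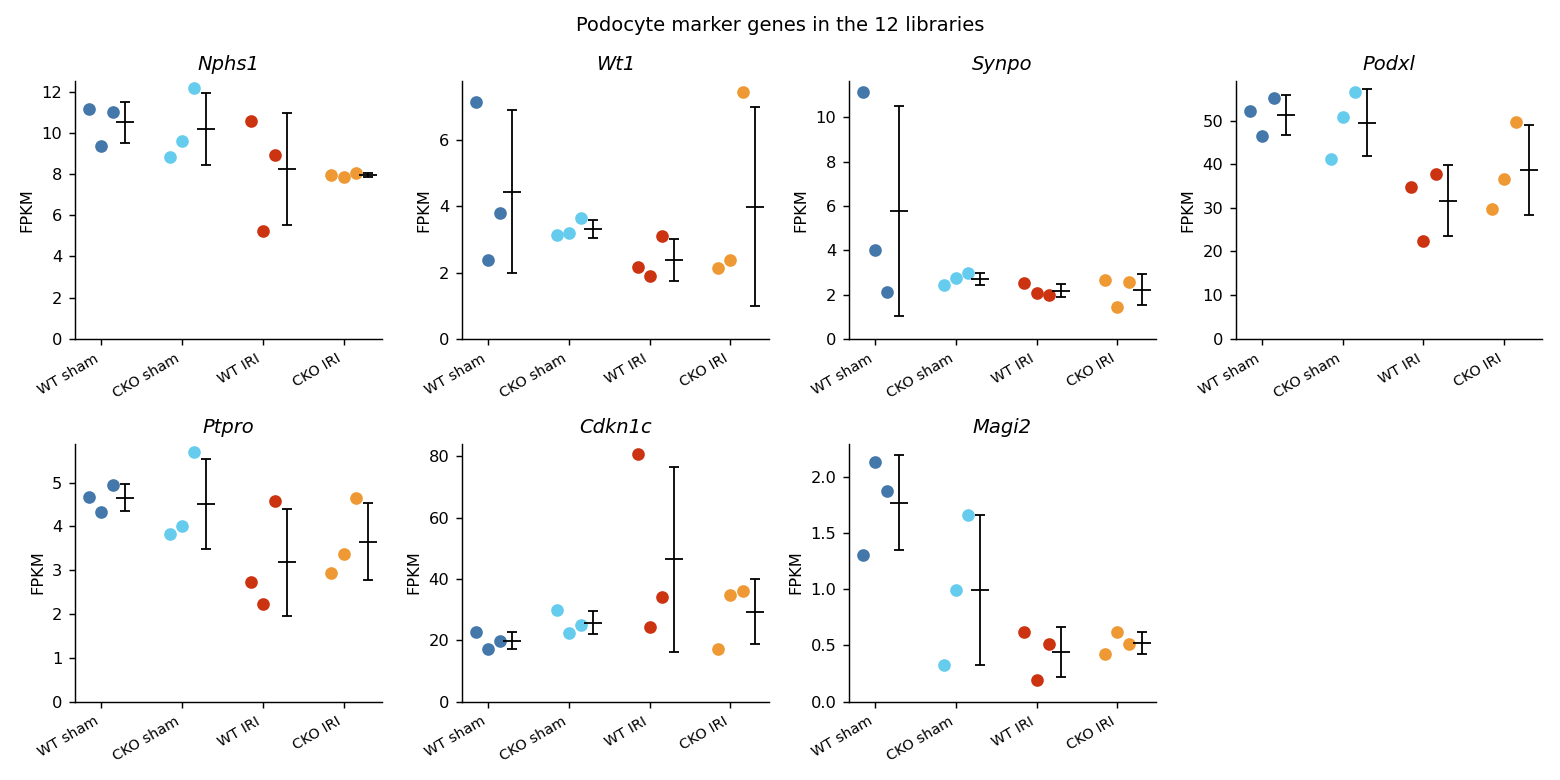
Each panel plots the FPKM (linear axis from 0) of 1 gene in the 12 libraries, with 1 point per library and the group mean with SD (n = 3) as a bar beside the points. Podxl in WT IRI (22.4 to 37.7 FPKM) lies below every sham library, Cdkn1c has 1 point at 80.9 FPKM in WT IRI, and Wt1 and Synpo each owe their wide groups to a single library.

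IRI against sham, the question of what injury did to these transcripts, gave 2 called genes among the 7, Podxl and Magi2, both lower. Magi2 reached 1 FPKM in sham libraries only and entered the test through them, so its call is given as a description and Podxl is the one call free of that limit. A gene was called at a Benjamini-Hochberg adjusted p under 0.05 from limma on log2(FPKM + 1), adjusted over the 12469 genes with at least 1 FPKM in 3 or more libraries. In WT, Podxl and Magi2 fell and none of the 7 rose, against 11.9% of all tested genes called lower and 25.1% called higher. In CKO none of the 7 was called in either direction, against 1.48% of all genes lower and 5.7% higher. With the injury difference averaged over both genotypes, Podxl and Magi2 were again called lower and none higher, against 11.8% of all genes lower and 25.6% higher. Podxl lost its call in WT without WT sham 1, WT sham 2, WT sham 3 or WT IRI 24, and over both genotypes without WT sham 3 or CKO sham 3. Other members gained one: Synpo fell in both comparisons without WT sham 3, Ptpro in both without WT IRI 49, and Nphs1 over both genotypes without WT IRI 13. Cdkn1c rose in both comparisons without WT IRI 24, and in WT without CKO IRI 7. This averaged comparison uses the same libraries as the other two and is no separate evidence. At an unadjusted limma p under 0.05 the counts were 4 of 7 in WT, 0 in CKO and 4 with both genotypes. Those in WT were Podxl, Magi2 and Synpo, lower, and Cdkn1c, higher. Those with both genotypes were Nphs1, Podxl, Ptpro and Magi2, all lower. The sums of Magi2, Synpo and Ptpro include rows kept through sham, as described below. The share of all genes at this threshold was not counted, so these counts say nothing particular to the 7 genes. The median change of the 7 genes (log2) was -0.60 in WT, -0.25 in CKO and -0.36 over both, and that of all tested genes was 0.12, 0.08 and 0.10. Between 67.8% (WT) and 79.4% (CKO) of all calls were rises, which became 50.4% and 63.5% after quantile normalization and 53.5% and 69.7% after trimmed-mean scaling. These scalings moved the median of all genes in WT from 0.12 to -0.02 and 0.01, and the median of the 7 genes there from -0.60 to -0.79 and -0.70.

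**Figure D2:**
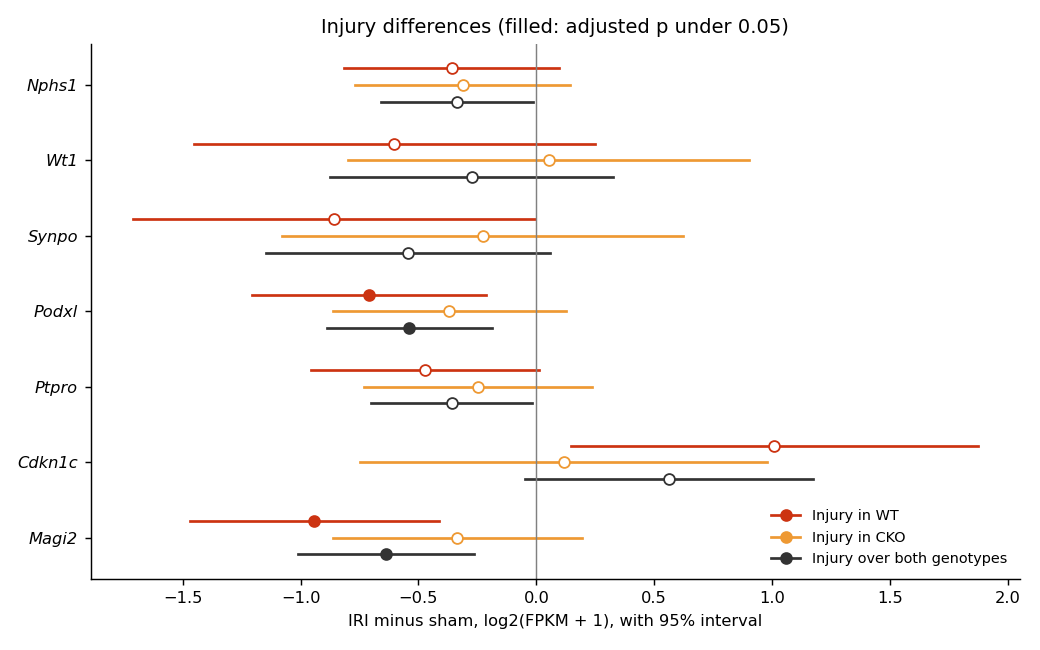
Points give the IRI minus sham difference on the log2(FPKM + 1) scale for each gene, in WT, in CKO and averaged over both genotypes, with 95% intervals from limma. Points are filled where the adjusted p is under 0.05: of the 7 genes only Podxl and Magi2 are filled, in WT and in the average.

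The slit diaphragm genes come first. Nphs1 encodes nephrin, the adhesion protein of the immunoglobulin superfamily that spans the slit between foot processes. The gene is at 30458315 to 30487223 of chromosome 7 (plus strand, mouse build GRCm38), and of its 5 annotated transcripts the table holds 1, Nphs1-201 (ENSMUST00000006825.8). Nphs1 stood at 11.1, 9.38 and 11.04 FPKM in WT sham 1, 2 and 3, 8.82, 9.58 and 12.2 in CKO sham 1, 2 and 3, 10.6, 5.25 and 8.92 in WT IRI 13, 24 and 49, and 7.93, 7.85 and 8.04 in CKO IRI 7, 15 and 29. WT IRI 24 was the lowest library by a wide margin, WT IRI 13 lay inside the sham range, and the CKO IRI libraries sat close together just under the lowest CKO sham library. Group means were 10.5 ± 0.988, 10.2 ± 1.76, 8.25 ± 2.73 and 7.94 ± 0.0965 FPKM in that order (SD, n = 3 each). The injury difference was -0.36 (log2, SE 0.21, limma adjusted p = 0.194) in WT, -0.31 (adjusted p = 0.392) in CKO and -0.34 (SE 0.15, adjusted p = 0.0935, 95% interval -0.66 to -0.01) over both. Nphs1 therefore did not pass the test in the fit as planned, although over both genotypes it did without WT IRI 13 (-0.43, adjusted p = 0.0322). The exact two-sided permutation test of the 6 IRI against the 6 sham libraries gave p = 0.0260 for Nphs1. Permutation p-values are unadjusted here and below, and 35 such tests were run. An antisense gene, Nphs1os, lies inside Nphs1, and the sources used here do not give the strand setting of the counting.

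Magi2 encodes a scaffold protein with PDZ domains that binds nephrin at the slit diaphragm. The gene spans chromosome 5 from 19227036 to 20704792 (plus strand), and 2 of its 15 annotated transcripts were deposited. Its values were 1.31, 2.14 and 1.87 FPKM in WT sham 1, 2 and 3, 0.322, 0.991 and 1.66 in CKO sham 1, 2 and 3, 0.621, 0.194 and 0.513 in WT IRI 13, 24 and 49, and 0.426, 0.619 and 0.514 in CKO IRI 7, 15 and 29. All WT IRI libraries were below all WT sham libraries, whereas CKO sham 1 was lower than most injured libraries, so that the CKO groups overlapped. Magi2 fell in WT by 0.94 (log2, SE 0.24, limma adjusted p = 0.0121) and over both genotypes by 0.64 (SE 0.17, adjusted p = 0.0138). In CKO the difference was -0.33 (adjusted p = 0.433). Only 4 libraries, all of them sham, held 1 FPKM or more of Magi2, so the gene entered the test through the groups where it was higher, and a difference between treatments was built into its being tested. At so low a level the pseudocount sets the size of the change: with 0.1 in place of 1, the difference in WT was -1.86. With no filter the adjusted p was 0.0112 in WT and 0.0128 over both genotypes, but the deposited rows had themselves been kept on their group means. The exact permutation test, run on all 7 genes whatever their level, gave p = 0.0130 for Magi2 with 6 against 6. It used the same deposited rows and shares that limit, so this p adds no support to the call. Both Magi2 rows had group means of 0.5 FPKM or more in sham only. Magi2-205 averaged 0.53 FPKM in WT sham and 0.88 in CKO sham, but 0.38 in WT IRI and 0.46 in CKO IRI. Magi2-206 reached that level in WT sham alone (1.24 FPKM).

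Among other genes of the slit diaphragm, 11 were tested beside Nphs1 and Magi2, and over both genotypes 5 rose and none fell. Of all tested genes 25.6% rose and 11.8% fell. The 5 that rose are also expressed outside podocytes and were led by Fat1, a giant cadherin (4.97 ± 0.410 FPKM in WT sham and 8.65 ± 2.34 in WT IRI; difference over both genotypes 0.74, limma adjusted p = 0.00132), and Cd2ap, an adaptor that links nephrin to actin (19.2 ± 0.776 and 34.7 ± 8.28 FPKM; 0.72, adjusted p = 0.00191). Next was Myo1e, an unconventional myosin (12.5 ± 0.311 and 15.6 ± 0.721 FPKM; 0.31, adjusted p = 0.0143). Kirrel (0.50) and Nck2 (0.31), named after their values were seen, were the others. The median of the 11 was 0.03 against 0.10 for all genes. In 10 other settings that left out no library, Cd2ap kept its call in 10, Fat1 in 9, and Myo1e and Nck2 in 8 each. With quantile normalization 2 rose and 1, Crb2, fell, with array weights 4 rose and Crb2 fell, and with trimmed-mean scaling or the highest transcript per gene 3 rose. Nck2 lost its call without any one of WT sham 1, WT sham 2, WT sham 3, CKO sham 1, CKO sham 2, WT IRI 24, CKO IRI 7 or CKO IRI 29, and Kirrel with the highest transcript (0.11), quantile normalization or array weights.

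Podxl encodes podocalyxin, the sialic-acid-rich protein that coats the upper surface of the foot processes and keeps them apart. It is also made by vascular endothelium. The gene lies on chromosome 6 (31519488 to 31563981, minus strand), and 1 of its 2 annotated transcripts was deposited (ENSMUST00000026698.7). Podxl stood at 52.2, 46.4 and 55.2 FPKM in WT sham 1, 2 and 3, 41.2, 50.7 and 56.6 in CKO sham 1, 2 and 3, 34.7, 22.4 and 37.7 in WT IRI 13, 24 and 49, and 29.6, 36.6 and 49.8 in CKO IRI 7, 15 and 29. Each WT IRI library was below all 6 sham libraries, while CKO IRI 29 lay inside the sham range. Podxl fell in WT from 51.3 ± 4.50 to 31.6 ± 8.10 FPKM, by 0.71 (log2, SE 0.22, limma adjusted p = 0.0301, 95% interval -1.21 to -0.21). In CKO the means were 49.5 ± 7.77 and 38.7 ± 10.2 FPKM, a difference of -0.37 (adjusted p = 0.351). Over both genotypes the fall was by 0.54 (SE 0.16, adjusted p = 0.0217), and the 6 against 6 exact permutation test gave p = 0.00649. The WT call was lost without WT sham 1 (-0.70, adjusted p = 0.0790), without WT sham 2 (-0.78, 0.0534), without WT sham 3 (-0.66, 0.0925) or without WT IRI 24 (-0.49, adjusted p = 0.102), and the call over both genotypes without WT sham 3 (-0.51, 0.0523) or CKO sham 3 (-0.49, 0.0546). Leaving out a WT sham library thus moved the WT difference by little, while leaving out WT IRI 24 made it smaller. It held in all of the other settings tried that did not leave out a library.

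Markers listed for the glomerular endothelium, which shares podocalyxin, were also lower on balance. Bulk cortex cannot place them in the glomerulus rather than in other vessels. Of 14 tested markers 9 fell and none rose over both genotypes, with a median of -0.65. Of all tested genes 11.8% fell and 25.6% rose. In WT 4 fell and 1 rose (median -0.47), against 11.9% of all genes lower and 25.1% higher. In CKO 3 fell and none rose (median -0.87), against 1.48% lower and 5.7% higher. Those called over both genotypes were led by Kdr, the VEGF receptor 2 (12.1 ± 0.224 FPKM in WT sham and 3.42 ± 1.71 in WT IRI; -1.49, limma adjusted p = 0.000492), and the junction proteins Cdh5 (-0.92, adjusted p = 0.00252) and Pecam1 (-1.02, adjusted p = 0.00291). Summed over the list, endothelial markers held 257 to 275 FPKM (WT sham), 284 to 394 FPKM (CKO sham), 116 to 220 FPKM (WT IRI) and 96.3 to 239 FPKM (CKO IRI), and none was at 0 throughout. Their part in the fall of Podxl was not tested. The endothelial falls over both genotypes numbered 6 without WT sham 3, CKO sham 1 or WT IRI 24, and 1 marker was called higher without CKO sham 1 and with array weights.

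Ptpro encodes GLEPP1, a receptor-type tyrosine phosphatase of the podocyte surface. It lies on chromosome 6 (137252319 to 137463233, plus strand), and 2 of 8 annotated transcripts were deposited. Ptpro stood at 4.68, 4.33 and 4.94 FPKM in WT sham 1, 2 and 3, 3.82, 4.01 and 5.70 in CKO sham 1, 2 and 3, 2.73, 2.23 and 4.57 in WT IRI 13, 24 and 49, and 2.93, 3.37 and 4.64 in CKO IRI 7, 15 and 29. WT IRI 49 and CKO IRI 29 lay within the sham range and the other 4 injured libraries lay below it. The difference was -0.47 (log2, SE 0.22, limma adjusted p = 0.112) in WT, -0.25 (adjusted p = 0.532) in CKO and -0.36 (SE 0.15, adjusted p = 0.0903) over both genotypes, with an exact permutation p of 0.0411 for 6 against 6. Ptpro thus missed the threshold as planned. Without WT IRI 49 it passed in WT (-0.70, adjusted p = 0.0173) and over both genotypes (-0.47, adjusted p = 0.0162). Every deposited row reached a group mean of 0.5 FPKM in at least 1 group, and Ptpro-201 did so in sham only. Its means were 0.976 FPKM in WT sham and 1.59 in CKO sham, but 0.0241 in WT IRI and 0.0137 in CKO IRI. A difference between treatments was thus built into that part of the Ptpro sum, in the fit and in the permutation test.

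The 2 deposited Ptpro transcripts differ in their first exon and in exon 17 of Ptpro-201, an internal exon of 84 bases (chromosome 6, 137420324 to 137420407) that Ptpro-203 skips. The coding lengths, 3678 and 3594 bases, differ by the same amount. The exon is shown in capitals between 20 bases of its neighbours, with the skipped junction under it, since it is the internal exon that tells the 2 transcripts apart. Both were read 5′ to 3′ on the plus strand from the GENCODE M21 transcripts.
Ptpro-201: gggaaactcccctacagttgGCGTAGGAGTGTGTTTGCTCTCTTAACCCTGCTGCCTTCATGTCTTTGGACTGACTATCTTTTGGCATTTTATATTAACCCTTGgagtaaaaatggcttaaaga
Ptpro-203: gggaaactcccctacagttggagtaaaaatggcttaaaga

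Ptpro-201, with exon 17, was assigned 2.93 FPKM in WT sham 2, 1.55 in CKO sham 1 and 3.21 in CKO sham 2, where it made up 67.7%, 40.6% and 80.1% of the gene. It was listed at 0 in 5 libraries and at 0.0724 FPKM or less in the other 4. All 3 libraries with an appreciable amount were sham libraries, and the other 3 sham libraries were listed at 0. Ptpro-203 made up the rest and was lower in those 3 than in the other sham libraries, at 1.40, 2.27 and 0.798 FPKM, while it reached 2.23 to 4.63 FPKM after injury. The gene sum was thus steadier than either transcript, and with the highest transcript in place of the sum the Ptpro difference over both genotypes was 0.16, of the opposite sign. The sources used here do not say how reads were divided between the transcripts, and this split has not been checked against reads.

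Synpo encodes synaptopodin, an actin-associated protein of the foot processes. The gene is on chromosome 18, and 2 of 12 annotated transcripts were deposited. Synpo stood at 11.1, 4.01 and 2.13 FPKM in WT sham 1, 2 and 3, 2.43, 2.73 and 2.96 in CKO sham 1, 2 and 3, 2.51, 2.06 and 1.96 in WT IRI 13, 24 and 49, and 2.64, 1.42 and 2.59 in CKO IRI 7, 15 and 29. WT sham 1 stood apart from the other 11 libraries, which lay between 1.42 and 4.01 FPKM and overlapped between all groups. The excess was in Synpo-201, at 8.49 FPKM in WT sham 1 and 0.0728 to 1.09 FPKM elsewhere. Every deposited row reached a group mean of 0.5 FPKM in at least 1 group, and Synpo-201 did so in WT sham only (3.52 FPKM). A difference from WT sham was thus built into that part of the Synpo sum. Synpo-206, the main transcript in the other libraries but WT sham 3, lay between 0.932 and 3.02 FPKM in all 12. The injury difference was -0.86 (log2, SE 0.39, limma adjusted p = 0.103) in WT, -0.23 (adjusted p = 0.760) in CKO and -0.54 (adjusted p = 0.140) over both genotypes. Without WT sham 1 the WT difference was -0.32 (adjusted p = 0.348), and without WT sham 3, the lowest of its group, it was -1.30 (adjusted p = 0.0205). For Synpo-206 alone it was -0.05 in WT. The 6 against 6 exact permutation p was 0.0520 for the Synpo sum.

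Of 25 other genes of the podocyte surface and cytoskeleton, 6 rose and 5 fell over both genotypes, with a median of 0.08. The share that rose was close to the 25.6% of all tested genes, and 11.8% of all genes fell. The rises were led by the integrin chains Itga3 (12.9 ± 1.06 FPKM in WT sham, 46.0 ± 13.7 in WT IRI; 1.37, limma adjusted p = 0.000707) and Itgb1 (0.64, adjusted p = 0.000825), which anchor podocytes and tubule cells to basement membrane, and by the myosin heavy chain Myh9 (0.76, adjusted p = 0.00121). Named after their values were seen, the 5 that fell were Clic5 (-0.99, adjusted p = 0.00197), a partner of podocalyxin and ezrin in foot processes, Arhgap24 (-0.70, adjusted p = 0.00658), a Rac regulator of podocytes, the growth factor Vegfa (-0.41), Bmp7 (-0.51) and Mme (-0.96), the last 3 also tubular genes. In WT sham Arhgap24 stood at 104 ± 2.86 FPKM and Clic5 at 20.9 ± 0.478 FPKM, both above Nphs1 at 10.5 ± 0.988 FPKM. Bulk cortex does not place the falls of Clic5 and Arhgap24 in podocytes either. With quantile normalization 8 fell. Of 12 tested genes listed for the basement membrane that podocytes and endothelium share, 7 rose and 2 fell (median 0.47). Bulk cortex does not tell this membrane from the others of the kidney. Agrn (agrin) rose by 1.10 (log2, adjusted p = 0.000288), Nid1 (nidogen) by 0.89 (adjusted p = 0.000669) and Col4a1 by 0.67 (adjusted p = 0.00106). The 2 that fell, named after their values were seen, were Col4a3 (-0.72, adjusted p = 0.00113), a collagen IV chain of the mature glomerular membrane, and Hspg2 (-0.31, adjusted p = 0.0279). Only 1 fell when WT sham 2 or 3, CKO sham 2 or 3, WT IRI 24, CKO IRI 7 or CKO IRI 29 was left out, or with the highest transcript per gene. The rises in this list numbered 5 with quantile normalization, trimmed-mean scaling or the highest transcript, and 5 to 7 with a library left out.

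Wt1 encodes a zinc finger transcription factor that the podocyte needs throughout life. It lies on chromosome 2 (105126529 to 105173616, plus strand), and 5 of 9 annotated transcripts were deposited. Wt1 stood at 7.16, 2.38 and 3.79 FPKM in WT sham 1, 2 and 3, 3.14, 3.19 and 3.64 in CKO sham 1, 2 and 3, 2.17, 1.89 and 3.11 in WT IRI 13, 24 and 49, and 2.14, 2.38 and 7.46 in CKO IRI 7, 15 and 29. The 2 highest libraries were of opposite treatment, WT sham 1 and CKO IRI 29, and the other 10 lay between 1.89 and 3.79 FPKM. The injury difference was -0.60 (log2, SE 0.39, limma adjusted p = 0.241) in WT, 0.05 (adjusted p = 0.952) in CKO and -0.27 (adjusted p = 0.457) over both genotypes. Without CKO IRI 29 the CKO difference was -0.41 (adjusted p = 0.557) and that over both genotypes -0.50 (adjusted p = 0.0902). Without WT sham 1 the WT difference was -0.26 (adjusted p = 0.640). The 6 against 6 exact permutation p was 0.377 for Wt1.

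Wt1 proteins come in forms that differ by 3 amino acids, lysine, threonine and serine (KTS), between the last zinc fingers. The form without KTS binds DNA as a transcription factor and the form with it has been tied to RNA processing, so the 9 bases that decide this are shown in capitals. They lie at the end of the next-to-last exon, which ends at 105170018 with the insert and at 105170009 without it (chromosome 2, plus strand), and were read 5′ to 3′ from the GENCODE M21 transcripts with 27 bases on either side.
Wt1-201, Wt1-205 and Wt1-209: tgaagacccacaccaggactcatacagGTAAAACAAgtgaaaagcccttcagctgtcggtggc
Wt1-202 and Wt1-204: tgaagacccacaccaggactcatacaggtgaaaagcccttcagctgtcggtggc

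Summed by this insert, the transcripts with KTS held on average 45.1% of Wt1 (WT sham), 53.1% (CKO sham), 41.3% (WT IRI) and 50.04% (CKO IRI). The libraries ranged from 34.5% in WT IRI 13 to 57.3% in CKO IRI 15, and the ranges of the 4 groups overlapped. The 2 high libraries, WT sham 1 and CKO IRI 29, were highest in both forms and more so in the form without KTS, at 4.42 and 4.77 FPKM against 0.882 to 1.99 FPKM in the other 10, than in the form with KTS, at 2.75 and 2.69 FPKM against 0.750 to 2.005 FPKM. By first exon they stood further apart. Wt1-201 and Wt1-202 start at a later first exon (105130883), and their sum was 5.96, 0.546 and 1.92 FPKM in WT sham 1, 2 and 3, 1.69, 0.425 and 0.00157 in CKO sham 1, 2 and 3, 0, 1.16 and 1.52 in WT IRI 13, 24 and 49, and 0, 1.22 and 6.14 in CKO IRI 7, 15 and 29. It made up 83.2% of Wt1 in WT sham 1 and 82.3% in CKO IRI 29 and was listed at 0 in WT IRI 13 and CKO IRI 7. Transcripts with the earlier first exon averaged 1.64 ± 0.375 FPKM for WT sham, 2.62 ± 1.11 for CKO sham, 1.496 ± 0.722 for WT IRI and 1.54 ± 0.529 for CKO IRI (SD, n = 3 each), with no library of their own standing apart. Every deposited row reached a group mean of 0.5 FPKM in at least 1 group. Wt1-205 did so in CKO sham only (0.885 FPKM), and Wt1-209 in sham only (0.501 in WT sham and 0.570 in CKO sham). Both have KTS and the earlier first exon. A difference between treatments was thus built into that part of the Wt1 sums, in the fit and in the permutation test. WT sham 1 was the highest library for Synpo-201 as well as the second highest for the Wt1 transcripts with the later first exon. The stacked bars by transcript show where each excess lies.

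**Figure D3:**
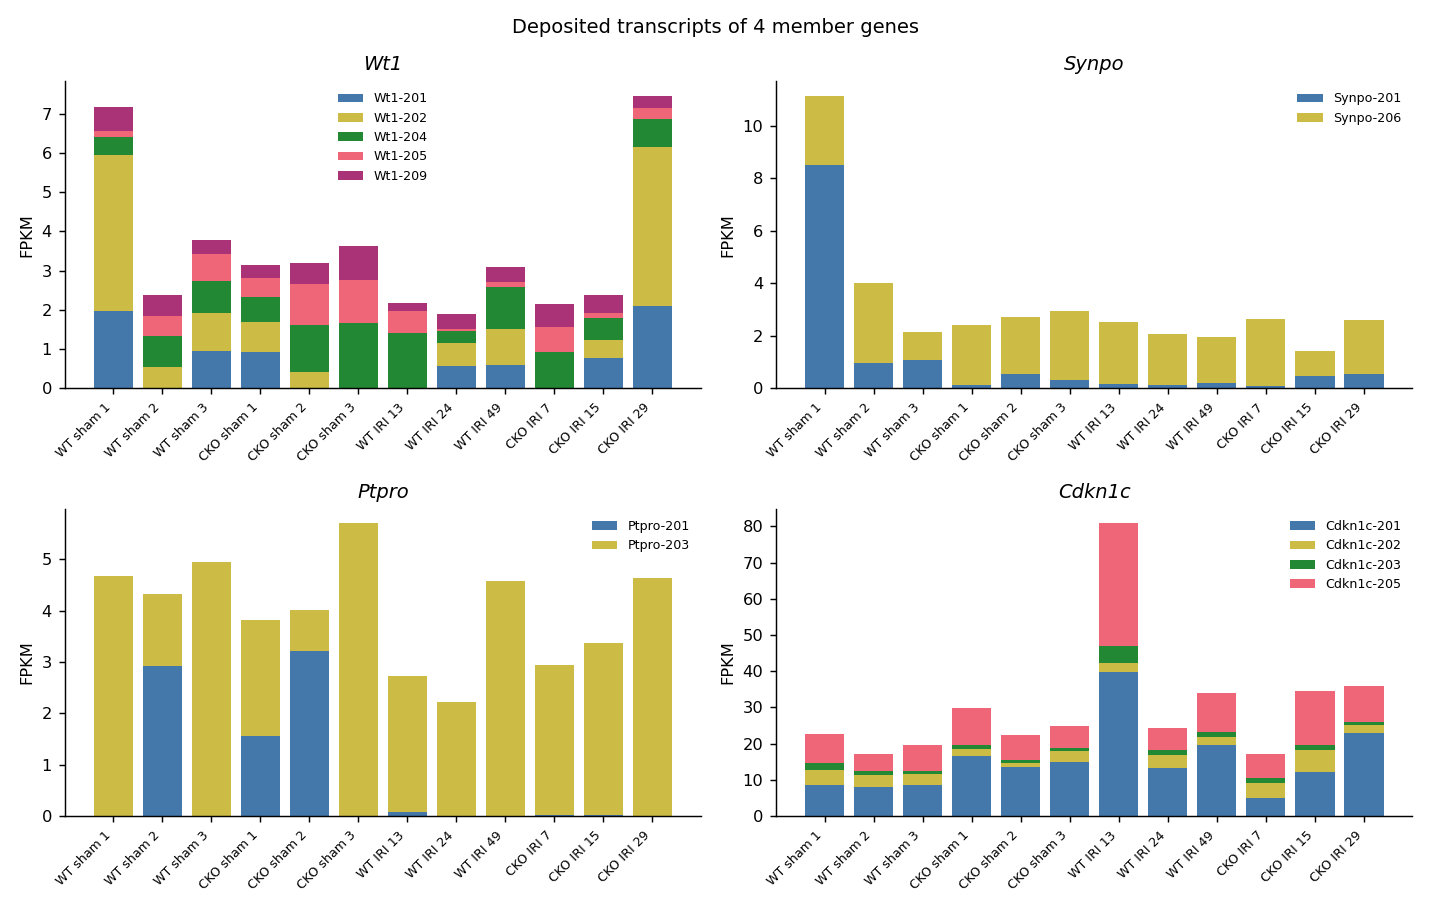
Stacked bars give the FPKM of each deposited transcript of Wt1, Synpo, Ptpro and Cdkn1c in the 12 libraries, on linear axes from 0. The tall Wt1 bars (WT sham 1 and CKO IRI 29) are mostly Wt1-202 and Wt1-201, the tall Synpo bar is Synpo-201, Ptpro-201 fills much of the bar in 3 sham libraries, and the tall Cdkn1c bar (WT IRI 13) is high in Cdkn1c-201 and Cdkn1c-205.

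None of the 8 other podocyte transcription factors tested passed in either direction over both genotypes, with a median of 0.03, and those of smallest p were Foxc1 (0.67, limma adjusted p = 0.0678), Tcf21 (0.63, adjusted p = 0.134) and Zhx1 (-0.27, adjusted p = 0.146). Foxc1 passed without CKO sham 1 (adjusted p = 0.0322) or CKO IRI 29 (0.00648), Tcf21 without WT IRI 24 (0.0250) and Zhx1 without WT IRI 49 (0.0237). Rises numbered 2 without CKO IRI 29 and 1 without CKO sham 1 or WT IRI 24, and 1 factor fell without WT sham 2 or WT IRI 49. With array weights 1 rose and 2 fell, and with quantile normalization 1 fell. Of all tested genes 25.6% rose and 11.8% fell over both genotypes in the fit as planned.

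Cdkn1c encodes p57Kip2, an inhibitor of cyclin-dependent kinases that marks podocytes that have left the cell cycle. It lies on chromosome 7 (143458339 to 143461050, minus strand), and 4 of 5 annotated transcripts were deposited. Cdkn1c was the one gene of the 7 with a positive difference in WT. Its values were 22.7, 17.2 and 19.6 FPKM in WT sham 1, 2 and 3, 30.0, 22.3 and 25.0 in CKO sham 1, 2 and 3, 80.9, 24.3 and 34.1 in WT IRI 13, 24 and 49, and 17.1, 34.6 and 36.0 in CKO IRI 7, 15 and 29. All WT IRI libraries were above all WT sham libraries, WT IRI 13 far above the rest, while CKO IRI 7 was the lowest of all 12. The difference was 1.01 (log2, SE 0.39, limma adjusted p = 0.0640, 95% interval 0.15 to 1.87) in WT, 0.12 (adjusted p = 0.892) in CKO and 0.56 (SE 0.28, adjusted p = 0.132) over both genotypes. In WT it passed the threshold without WT IRI 24 (1.37, adjusted p = 0.0244) or CKO IRI 7 (1.01, adjusted p = 0.0484), and was 0.52 (adjusted p = 0.217) without WT IRI 13. Over both genotypes it passed without WT IRI 24 (0.74, adjusted p = 0.0475). With all 12 libraries the exact 6 against 6 permutation p was 0.0909.

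The high value of WT IRI 13 was spread over Cdkn1c-201 (39.9 FPKM there, 8.38 ± 0.384 in WT sham), Cdkn1c-205 (33.8 against 6.74 ± 1.70) and Cdkn1c-203 (4.87 against 1.21 ± 0.478), while Cdkn1c-202 stood at 2.31 FPKM against 3.54 ± 0.556. Cdkn1c-201 also separated the sham groups, at 13.5 to 16.5 FPKM in CKO sham and 7.94 to 8.66 FPKM in WT sham, an observation made after the values had been seen. An antisense gene, Gm44732 (143459749 to 143460640, plus strand), lies inside Cdkn1c, and without the strand setting reads from both genes cannot be told apart. The 5 other inhibitors of this kind that were tested all rose over both genotypes (median 1.04), led by Cdkn2c (p18, 7.57 ± 1.19 FPKM in WT sham and 20.1 ± 1.67 in WT IRI; 1.17, limma adjusted p = 1.49e-05), Cdkn2d (p19, 0.99, adjusted p = 2.09e-05) and Cdkn1a (p21, 7.73 ± 0.620 and 82.8 ± 53.3 FPKM; 2.81, adjusted p = 0.000246). These genes are expressed by many renal cell types, and 25.6% of all tested genes rose over both genotypes. Rises among the 5 numbered 4 with quantile normalization, trimmed-mean scaling or the highest transcript, and 4 or 5 with a library left out. Cdkn2d kept its call in 9 of 10 other settings that left out no library (lowest difference 0.45, highest limma adjusted p 0.174).

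Read by library rather than by gene, the 7 genes did not move as one. Deviation of a library is given from the mean of WT sham on the log2(FPKM + 1) scale. The median over the 7 genes was lowest in WT IRI 24 (-0.88), followed by CKO IRI 7 (-0.66), WT IRI 13 (-0.60), CKO IRI 15 (-0.47) and WT IRI 49 (-0.31), and was -0.04 in CKO IRI 29. In the sham libraries it lay between -0.30 in CKO sham 1 and 0.14 in CKO sham 3. WT IRI 24 was low in 6 of the 7 genes, from -0.81 for Ptpro to -1.20 for Magi2, and CKO IRI 7 was below the WT sham mean in all 7. CKO IRI 29 was within 0.04 of that mean for Podxl and Ptpro and above it for Wt1 and Cdkn1c. These values chose no library for removal, and the cause of the spread was not tested.

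**Figure D4:**
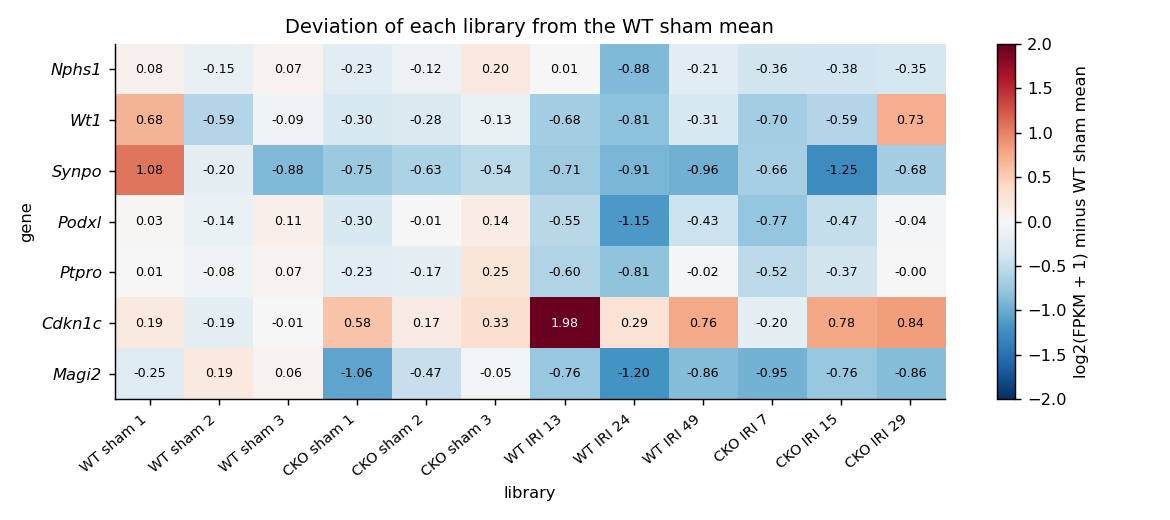
Each cell gives the deviation of 1 library from the WT sham mean for 1 gene, on the log2(FPKM + 1) scale, with blue for lower and red for higher values. The column of WT IRI 24 is blue for all genes but Cdkn1c (0.29), the Magi2 row is between -0.76 and -1.20 in the 6 injured libraries, and Cdkn1c in WT IRI 13 (1.98) is the highest cell.

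Over the 12 libraries the closest pair was Podxl and Ptpro (Pearson r 0.914, Spearman rho 0.923), and with group means removed their r was 0.855. Nphs1 followed Podxl (r 0.813), Magi2 (0.722) and Ptpro (0.712). Cdkn1c had r between -0.40 and 0.06 with the other 6 genes, and with group means removed between 0.10 and 0.62. Wt1 and Synpo stood lower against Nphs1, at 0.385 and 0.419. These are descriptions over 12 libraries that share treatment groups and library totals, and no p is attached. The scatter plots of Ptpro and Nphs1 against Podxl show the points behind the highest values. Ranked by r with Nphs1 among 12468 genes, Podxl was number 30, Magi2 142 and Ptpro 162, while Synpo was 1791, Wt1 2077 and Cdkn1c 4486. The genes most like Nphs1 were Pdzd3 (r 0.938), Hlx (0.922), Erich4 (0.887), Myom2 (0.883), Pex5 (0.875) and Ndufv1 (0.872). Those most like Podxl were Mfsd4b5 (0.956), Slc13a3 (0.935) and Lonrf1 (0.909), and Slc13a3, a dicarboxylate transporter of the proximal tubule, was also among the 3 most like Ptpro (0.915), with Xlr3a (0.927) and Rtn4rl1 (0.924). Magi2 was most like Chd3 (0.920), Tmem167b (0.913) and Krt80 (0.908). Wt1 was most like Ei24 (0.900), Acot6 (0.844) and Bid (0.825), and Synpo most like Aftph (0.870), Pgghg (0.817) and Golim4 (0.796), the lists with the lowest r. Cdkn1c was most like Amd2 (0.971), Snf8 (0.970) and Mrpl51 (0.969).

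**Figure D5:**
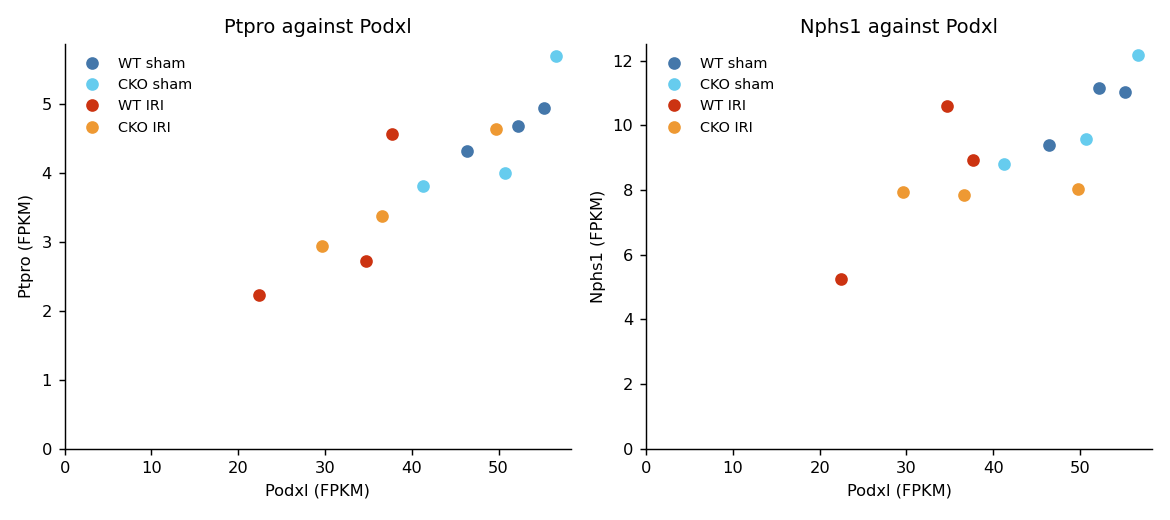
The left panel plots Ptpro and the right panel Nphs1 against Podxl, in FPKM on linear axes from 0, with 1 point per library coloured by group. Podxl and Ptpro rise and fall together over all 12 libraries (Pearson r 0.914), and WT IRI 24 is lowest for all 3 genes, while WT IRI 13 holds more Nphs1 (10.6 FPKM) than the other libraries of like Podxl level.

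CKO against WT, the comparison of the knockout itself, called none of the 7 genes. In sham, 0 of the 7 were called by limma and 0 had an unadjusted p under 0.05, against 0% of all genes called higher and 0% lower. The largest differences in sham were Synpo at -0.64 (log2, SE 0.39, adjusted p = 0.757, 95% interval -1.49 to 0.21), which rests on WT sham 1 (-0.10 without it), Magi2 at -0.52 (SE 0.24, unadjusted p = 0.0524, adjusted p = 0.755) and Cdkn1c at 0.36 (SE 0.39, adjusted p = 0.866). Nphs1, Podxl and Ptpro differed by -0.05, -0.06 and -0.05, with 95% intervals from -0.51 to 0.41, -0.55 to 0.44 and -0.53 to 0.43, so differences of up to about those sizes could not be seen here. Between the libraries labelled CKO IRI and WT IRI 0 of the 7 were called, with 0 at an unadjusted p under 0.05, against 0.0241% of all genes called higher and 0.016% lower. The differences there ran from -0.54 for Cdkn1c (SE 0.39, adjusted p = 0.443) to 0.42 for Wt1 (SE 0.39, adjusted p = 0.548), with Podxl at 0.28 (SE 0.22, adjusted p = 0.482). The exact permutation p was at least 0.2 for each of the 7 genes in both genotype comparisons. With 3 against 3 it can be no less than 0.1. Without WT IRI 49, limma calls among all genes after IRI went from 5 to 1394, and none of the 7 was called.

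Whether injury acted differently in the 2 genotypes was tested by the interaction. None of the 7 passed, and 0 had an unadjusted p under 0.05, against 0.00802% of all genes called in each direction. For Podxl, called in WT and not in CKO, the difference of the injury differences was 0.34 (log2, SE 0.32, limma adjusted p = 0.568, 95% interval -0.36 to 1.04). For Magi2 it was 0.61 (SE 0.34, adjusted p = 0.354, interval -0.14 to 1.36) and for Cdkn1c -0.89 (SE 0.55, adjusted p = 0.397, interval -2.11 to 0.33). The calls in WT are therefore not shown to differ from the results in CKO. Interaction calls among all genes went from 2 to 579 without WT IRI 49, and none of the 7 was called.

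By transcript, 10 of the 17 were high enough to test. In WT 0 of the 10 were called, against 19.6% of all transcripts in either direction. In CKO it was 0, against 2.14%, and over both genotypes 1 was called, against 19.6%. That one was Podxl-201, the only deposited transcript of its gene (-0.54, limma adjusted p = 0.0426 over 20314 transcripts). Neither Magi2 transcript passed the filter on low values: Magi2-205 was listed at 0 in 2 libraries and Magi2-206 in 6, and the 2 filled in for each other, with Magi2-206 the main one in WT sham 2, WT sham 3, CKO sham 1 and WT IRI 24. At an unadjusted limma p under 0.05 were only Podxl-201 and Cdkn1c-201 (1.29 in WT, unadjusted p = 0.0214, adjusted p = 0.0825). The share of all transcripts at that threshold was not counted.

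Markers of other cell types of the cortex are set beside the falls above. Of all tested genes, 25.6% were called higher and 11.8% lower over both genotypes. The counts for mesangium and for distal tubule and collecting duct lay near those shares. Over both genotypes 9 of 10 proximal tubule markers fell (median -1.02), among them Slc5a2 (-1.01), Lrp2 (-1.41) and Acsm2 (-0.85), and their sum went from 8880 to 10940 FPKM in sham to 2000 to 7602 FPKM after IRI. All 7 tubular injury genes rose (median 2.85), led by Havcr1 (6.56), Lcn2 (5.03) and Krt20 (5.40). Fibroblast markers rose in 7 of 10 (median 1.36; Col3a1 3.07, Col1a1 3.35, Vim 2.29), and those of the parietal epithelium of the glomerular capsule in 7 of 8 (median 1.16; Krt8 2.05, Cldn1 1.84, Cd44 1.63), though tubule cells also make Krt8 and Cd44 after injury. Cd44 and Krt20 stayed under 1 FPKM in every sham library, at 0.901 and 0.658 FPKM at most. After IRI they held at least 1.22 and 15.5 FPKM. They thus entered the test through the injured libraries, and their rises are given as descriptions. Other listed genes may share this limit. Macrophage and monocyte markers rose in 4 of 10 and fell in 1 (Cd14 1.96, Cd68 1.13, Cd74 -1.16), or fell in 2 without WT IRI 49. Of 11 mesangial markers 3 rose and 1 fell (Fhl2 1.02, Serpine2 0.81, Ptn 0.34, and Art3 at -0.76, named after its value was seen). The mesangial rises numbered 5 without WT IRI 24 and 6 without CKO IRI 7, but 2 without CKO IRI 15 or any one of WT sham 2, WT sham 3, CKO sham 2 and CKO sham 3. None fell without any one of WT sham 1, WT sham 3, CKO sham 1, CKO sham 2, WT IRI 13, WT IRI 24, CKO IRI 7 or CKO IRI 29, while 2 fell without WT IRI 49. Of 10 distal tubule and collecting duct markers 2 rose and 2 fell (Aqp2 1.24, Fxyd4 0.79, Slc4a1 -1.19, and Slc12a3 at -0.60, named after its value was seen). Leaving out any one library left 1 rise, except CKO sham 1, WT IRI 49 and CKO IRI 29 with 2, and 1 fall, except WT IRI 24 with 2 and WT IRI 49 with 3. No marker of these lists was at 0 in every library, and the part of changing cell shares in the values of the 7 genes was not tested.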

How the data were processed

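RNA from the renal cortex of mice was sequenced in 12 libraries, 3 in each of 4 groups taken from the labels. The authors deposited 1 table of FPKM per Ensembl mouse transcript, made with cutadapt, HISAT2 2.1.0 and StringTie per the submitters' processing notes. Its header does not name the unit, which was read as FPKM from the values and from StringTie, and TPM would differ by a single factor in each library. Those notes give GRCh38, a human build, although the identifiers are mouse. In every deposited row at least 1 group mean was 0.5 FPKM or more. Strand setting, annotation release and read depth are not given in the sources used here, so no count test was run and no counting error is given.

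Identifiers without version were matched to GENCODE M21 (GRCm38), which gave 25740 matches. The 50 others held at most 0.103% of a library and were left out. Transcripts were summed to 13465 genes. The 12469 genes with at least 1 FPKM in 3 or more libraries were fitted with limma 3.58.1 in R 4.3.3 on log2(FPKM + 1), with 1 mean per group, 1 spread shared by the 4 groups and a mean-variance trend. Differences are on that scale, which understates changes of low genes. Tests were two-sided, and p-values were adjusted by Benjamini-Hochberg over all genes within a comparison. Exact permutation tests were run on single genes, 35 for the 7 genes, and their p-values are unadjusted. The fit was tested on simulated data.

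The 7 genes, the 13 gene lists (slit diaphragm, podocyte surface and cytoskeleton, podocyte transcription factors, glomerular basement membrane, cyclin-dependent kinase inhibitors, glomerular endothelium, mesangium, parietal epithelium, macrophage and monocyte, fibroblast, proximal tubule, distal tubule and collecting duct, tubular injury) and the tests were chosen with earlier results of these data known. A few genes of these lists are not reported here and are in no count, median or sum of a list. Named genes were the 7, Gpx3, the 3 tested genes of smallest limma p over both genotypes in each list, and the genes of highest Pearson r with each of the 7 (6 for Nphs1, 3 for the others, predicted and clone names passed over). Other genes are marked as chosen after their values were seen. Alternatives were pseudocounts of 0.1 and 0.5, no filter or one of 5 FPKM, quantile, trimmed-mean and sum scaling, only the groups compared, weights per library or per group, the highest transcript in place of the sum, a replicate block in sham, and leaving out each library.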

Additional observations from a re-analysis of the deposited data

How the results depend on the processing

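Counts of the 7 genes called were recomputed under each alternative. The count lower in WT (2) was 1 with a 5 FPKM filter (3 of the 7 genes tested), 4 with array weights, 1 with the highest transcript (5 tested), and 1 to 3 with a library left out. The count higher in WT (0) was 1, Cdkn1c, with 1 variance weight per group, and 0 to 1 with a library left out. The count lower in CKO (0) was 1, Podxl, with array weights. Array weights also raised the calls among all genes, from 4608 to 5505 in WT and from 896 to 3551 in CKO. Over both genotypes they raised them from 4669 to 6257. Over both genotypes the count lower (2) was 1 with the 5 FPKM filter, 4 with quantile normalization, 4 with trimmed-mean scaling and 4 with array weights, each adding Nphs1 and Ptpro, 1 with the highest transcript, and 1 to 3 with a library left out. The count higher there (0) was 0 to 1 with a library left out. With quantile normalization 3 fell in WT, Ptpro being added. Rises made up 68.5% of all calls over both genotypes as planned. They made up 49.5% of 4408 calls with quantile normalization and 53.7% of 4434 with trimmed-mean scaling. Outside the leave-one-out runs, all other counts of the 7 genes stayed as reported.

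The sign changed in 21 single differences outside the leave-one-out runs, none of them called, and the cause was not tested. With array weights Nphs1, Podxl and Ptpro in sham were 0.0139, 0.0342 and 0.00926, Nphs1 and Synpo after IRI were 0.25 and 0.15, and Wt1 and Cdkn1c in CKO were -0.32 and -0.24. With quantile normalization Nphs1, Synpo and Magi2 after IRI were 0.0457, 0.0424 and -0.0107 and Wt1 in CKO was -0.0817. With trimmed-mean scaling Nphs1 and Synpo after IRI were 0.0418 and 0.0267 and Wt1 in CKO was -0.0143. Nphs1 after IRI was 0.00399 and 0.000815 with pseudocounts of 0.1 and 0.5. With the highest transcript Synpo was 0.12 in sham and -0.24 in the interaction, Ptpro 0.43 in CKO and 0.16 over both, and Cdkn1c -0.37 in CKO.

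With a library left out, the signs of uncalled differences also turned. In sham, Nphs1 lay between -0.17 and 0.0392, Wt1 between -0.54 and 0.10, Podxl between -0.16 and 0.0662 and Ptpro between -0.20 and 0.0374. After IRI, Nphs1 lay between -0.26 and 0.18, Wt1 between -0.0414 and 0.67, Synpo between -0.11 and 0.19 and Magi2 between -0.0461 and 0.17. In CKO, Wt1 lay between -0.41 and 0.31 and Cdkn1c between -0.0664 and 0.45, and the Nphs1 interaction lay between -0.21 and 0.23. None of the genes named from the lists changed sign over both genotypes under any alternative.

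The sham replicate numbers did not pair the libraries, since same-numbered libraries deviated with r of 0.00355, -0.0314 and -0.00247. With the replicate block in sham, 0 of the 7 genes and 0 of all genes were called, as without it. No paired analysis was possible after IRI because those groups share no numbers.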
